A study of Homo sapiens with 12 samples.

Results

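The genes described here are 9 human bromodomain genes outside the SWI/SNF chromatin remodelling complexes: BRD1, BRD2, BRD3, BRD8, BRPF1, BRPF3, BPTF, CECR2 and ATAD2. They were chosen by name, as relatives of BRD9, and not by a rule on their measured values, though earlier results of these data were known. They make up 9 of the 57820 gene identifiers in the deposited tables, and all 9 were among the 15750 genes that had enough counts to be tested. RNA sequencing was done in G401, an established human rhabdoid tumour cell line with the genotype SMARCB1(-/-). All groups carried that genotype and an induction by doxycycline, either of GFP, as the control protein, or of SMARCB1, the missing SWI/SNF subunit. Each cell state received the solvent DMSO or dBRD9-A, a small molecule that degrades the BRD9 protein, for 24 h, which gave 4 groups of 3 libraries. The groups are called GFP DMSO, GFP dBRD9-A, SMARCB1 DMSO and SMARCB1 dBRD9-A. How long doxycycline was given and what drove the induced genes are not given in the sources used here. The labels do not say whether replicates were separate cultures, so p-values measure the spread between these libraries, which may be technical.

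A bromodomain is a protein module that binds acetylated lysine, most often on histone tails, and so ties a protein to acetylated chromatin. BRD2 and BRD3 belong to the BET family, whose members carry a tandem pair of bromodomains and an extraterminal domain and link acetylated chromatin to transcription. BRD1, BRPF1 and BRPF3 are scaffolds of MYST-family histone acetyltransferase complexes, BRD8 is a subunit of the TIP60 acetyltransferase complex, BPTF and CECR2 are subunits of ISWI-type remodelling complexes (NURF and CERF), and ATAD2 is an AAA+ ATPase with a bromodomain. BRD9 itself is a subunit of the non-canonical BAF form of SWI/SNF.

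Libraries held 34.97 to 58.54 megacounts (1e6 counts) assigned to genes. SMARCB1 had 0 to 2 counts in the GFP libraries, 69021 to 110893 in SMARCB1 DMSO and 53033 to 71966 in SMARCB1 dBRD9-A. Its level in SMARCB1 cells went from 1875 ± 59.4 CPM in DMSO to 1307 ± 27.0 CPM with dBRD9-A (SD, n = 3), a fall of -0.52 on the log2 scale (edgeR adjusted p = 4.95e-08). The part of that fall in the comparisons that use SMARCB1 dBRD9-A was not tested. BRD9 transcript averaged 38.3 counts per megacount (CPM) in GFP DMSO, 41.2 in GFP dBRD9-A, 46.9 in SMARCB1 DMSO and 47.5 in SMARCB1 dBRD9-A. BRD9 protein, the target of the degrader, was not among the measurements. The line markers VIM, KRT8 and KRT18 summed to 5692 to 6418 CPM per library. Of 6 markers of other cell types, the immune genes PTPRC and CD3E had 0 counts in every library, the hepatocyte gene ALB had at most 1, and the endothelial gene PECAM1 matched no row by its symbol. The endothelial gene VWF had 1 to 5 counts in GFP DMSO and 22 to 50 in SMARCB1 DMSO. The fibroblast collagen gene COL1A1 averaged 257 CPM in GFP DMSO, 178 in GFP dBRD9-A, 95.2 in SMARCB1 DMSO and 68.5 in SMARCB1 dBRD9-A. COL1A1 was called lower with SMARCB1 in DMSO (log2 fold change -1.43, edgeR adjusted p = 8.46e-15) and with dBRD9-A in GFP cells (-0.53, 1.39e-07), and its part in the results below was not tested. When libraries were scaled by ERCC spike-in RNAs in place of the trimmed mean of M values, TMM, the median of the log2 fold changes over all genes moved from 0 to 0.17 for SMARCB1 against GFP in DMSO and to 0.36 for dBRD9-A in GFP cells. It moved to -0.14 for dBRD9-A in SMARCB1 cells and to -0.32 for SMARCB1 against GFP with dBRD9-A. The changes below are relative to the other genes of a library. In bulk RNA, fewer cells that express a gene and less of its RNA per cell cannot be told apart.

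All 9 genes were expressed in every group, and the lowest count of any of them in a library was 380, for BRPF3. Per kilobase of exon in GFP DMSO, ATAD2 had the highest level, 41.8 CPM per kilobase. BRD2 (6.66), BRD1 (6.43) and BRD8 (6.21) followed on that scale, then BRD3 (4.78), BRPF1 (4.55) and BPTF (3.17). BRPF3 (1.60) and CECR2 (0.986) were the lowest. Below, levels are CPM of a gene in a library, without division by length, and serve to compare groups within a gene.

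**Figure D1:**
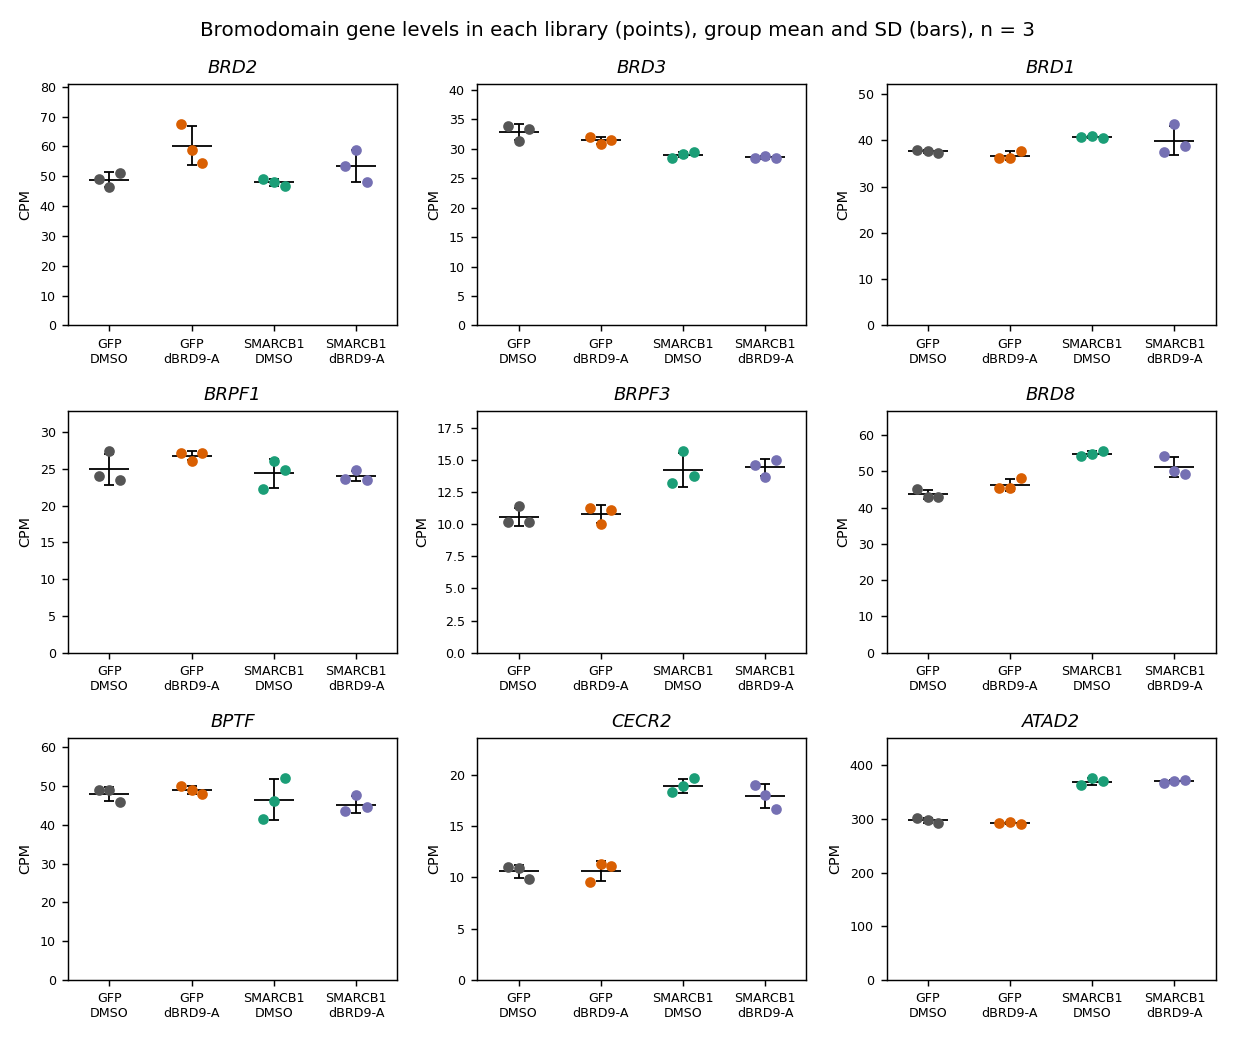
Level of each of the 9 bromodomain genes (vertical axes, CPM on TMM-scaled library sizes, from 0) in the 4 groups, with 1 point per library and bars for the group mean and SD (n = 3). CECR2, BRPF3, BRD8 and ATAD2 lie higher in both SMARCB1 groups than in both GFP groups, and BRD2 lies higher in the GFP dBRD9-A libraries (54.6 to 67.6) than in the GFP DMSO libraries (46.3 to 51.2).

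BRD2 was the only gene of the 9 called with the degrader in GFP cells, and BRD3 was called lower with SMARCB1 in both treatments. Their promoter windows are printed because they are the BET genes among the 9, and their calls carry the results for that family. The windows run from 250 bases before to 50 after a RefSeq transcription start (GRCh38.p14), 5′ to 3′ on the gene's strand, with matches to the GC box GGGCGG or its reverse complement CCGCCC in capitals. That of BRD2 is chr6:32970680-32970979 on the plus strand, 1 of 4 windows listed for the gene and the one with 4 of its 19 GENCODE 29 transcript starts within 100 bases. That of BRD3 is chr9:134067977-134068276 on the minus strand, the only window listed for it.
BRD2: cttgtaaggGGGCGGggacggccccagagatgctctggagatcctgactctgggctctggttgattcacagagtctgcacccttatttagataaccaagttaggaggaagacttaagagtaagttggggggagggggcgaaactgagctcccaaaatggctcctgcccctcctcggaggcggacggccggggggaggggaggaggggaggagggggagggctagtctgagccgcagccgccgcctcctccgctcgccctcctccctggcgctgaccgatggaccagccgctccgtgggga
BRD3: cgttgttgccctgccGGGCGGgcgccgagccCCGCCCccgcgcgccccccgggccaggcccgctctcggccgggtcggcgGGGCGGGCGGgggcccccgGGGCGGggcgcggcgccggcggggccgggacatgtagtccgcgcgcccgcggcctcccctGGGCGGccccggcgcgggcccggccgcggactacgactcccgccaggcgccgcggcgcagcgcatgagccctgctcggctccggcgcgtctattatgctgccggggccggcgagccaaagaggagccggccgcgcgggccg
The BRD2 window held 1 GC box and 64.3% G or C. The BRD3 window held 6 GC boxes, of which 1 pair overlapped, and 85.0% G or C, beside 57.5% over all 35116 windows in the table. A GC box occurred in 45.0% of all windows and in 8 of the 13 windows found for 7 of the 9 genes. On both strands, the CCAAT box (letters CCAAT) was found in 34.6% of all windows, the TATA box (letters TATAAA) in 11.5%, the E-box (letters CACGTG) in 7.26% and the ETS core (letters CCGGAAG) in 10.3%, and each in 0 of those 13. These matches describe letters in the windows, and no binding was measured.

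The degrader in GFP cells was the comparison that asked whether relatives of BRD9 change when BRD9 is degraded. BRD2 rose and the other 8 genes were not called. BRD2 had 49.1, 46.3 and 51.2 CPM in GFP DMSO and 67.6, 58.7 and 54.6 CPM in GFP dBRD9-A. Each of the 3 treated libraries lay above each of the 3 DMSO libraries, with treated replicate 1 the highest. The mean went from 48.9 ± 2.48 to 60.3 ± 6.61 CPM (SD, n = 3), which was a 1.23-fold rise (log2 fold change 0.30, SE 0.07, 95% interval 0.15 to 0.45, adjusted p = 0.00645, edgeR quasi-likelihood test). DESeq2 gave an adjusted p of 0.00831. The call rested on GFP dBRD9-A replicate 1, since without it the log2 fold change was 0.21 and the edgeR adjusted p 0.0527. Without any other library the call held. HLA-DMA, a coding gene that overlaps BRD2 on the opposite strand, had a log2 fold change of -0.01 (edgeR adjusted p = 0.976) at 2.45 CPM in GFP DMSO.

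That 1 called gene of 9 stands beside 15.9% of all genes called in the comparison (7.43% higher and 8.47% lower). The groups did not overlap for 2 of the 9, BRD2 and BRD8, beside 34.0% of all genes. The log2 fold changes of the other 8 genes lay between -0.06 (BRD3) and 0.11 (BRPF1), and their 95% intervals all lay between -0.15 and 0.24. ATAD2, with the highest counts, had the narrowest interval, -0.08 to 0.02. BRD8 had 45.2, 43.1 and 43.0 CPM in GFP DMSO and 45.3, 45.4 and 48.2 CPM in GFP dBRD9-A, so its treated libraries were all higher, by a log2 fold change of 0.08 (edgeR adjusted p = 0.218). KIF20A, which overlaps BRD8 on the opposite strand, was called lower there (-0.10, edgeR adjusted p = 0.0256), and in 8 of 12 fits with 1 library omitted. Its part in the BRD8 value was not tested. BRD3, the BET paralog of BRD2, had 33.8, 31.3 and 33.4 CPM in GFP DMSO and 32.0, 30.8 and 31.6 CPM in GFP dBRD9-A. Its groups overlapped, and its interval was -0.15 to 0.02. Scaled by the spike-ins, all 9 genes had positive log2 fold changes and all 9 were called, beside 70.4% of all genes called higher. Among them were BRD1, BRD3 and ATAD2, which were negative but not called with TMM. Relative to the 0.36 shift of all genes under that scaling, BRD2 was higher by 0.30.

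In SMARCB1 cells the degrader gave no call among the 9 genes by edgeR or by DESeq2, beside 1.93% of all genes called (0.679% higher and 1.25% lower). At an unadjusted p under 0.05 there were 2 of the 9, BRD2 and BRD8, beside 2006 of all 15750 genes. BRD2 had 49.2, 47.9 and 46.7 CPM in SMARCB1 DMSO and 53.3, 58.9 and 48.0 CPM in SMARCB1 dBRD9-A, and the groups overlapped. Its log2 fold change was 0.16 (95% interval 0.01 to 0.31, edgeR adjusted p = 0.355). With no filter on low counts its edgeR adjusted p was 0.00746, beside 2.27% of all genes called in that fit. BRD8 had 54.4, 54.7 and 55.6 CPM in SMARCB1 DMSO and 54.31, 50.04 and 49.28 CPM in SMARCB1 dBRD9-A. All its treated libraries were lower, by a log2 fold change of -0.10 (95% interval -0.19 to -0.02, edgeR adjusted p = 0.256). It was the only gene of the 9 whose groups did not overlap there, beside 16.9% of all genes. Its opposite-strand neighbour KIF20A had 174.9 to 180.0 CPM in SMARCB1 DMSO and 165.5 to 172.4 CPM in SMARCB1 dBRD9-A. The part of KIF20A in the BRD8 value and in the BRD8 interaction below was not tested. For the other 7 of the 9 genes, log2 fold changes lay between -0.08 (CECR2) and 0.02 (BRPF3).

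Whether the degrader response differed between the cell states was tested by an interaction term, the log2 response in SMARCB1 cells minus that in GFP cells. No gene of the 9 was called by edgeR or DESeq2, beside 3.80% of all genes (2.15% higher and 1.65% lower). An unadjusted p under 0.05 was found for 1 of the 9, BRD8, beside 2506 of all 15750 genes. The BRD2 interaction was -0.14 (95% interval -0.36 to 0.07, edgeR adjusted p = 0.528), so its call in GFP cells and the lack of one in SMARCB1 cells are not a tested difference. For BRD8, with a log2 fold change of 0.08 in GFP cells and -0.10 in SMARCB1 cells, neither called, the interaction was -0.18 (SE 0.06, 95% interval -0.30 to -0.06, edgeR adjusted p = 0.0959, DESeq2 adjusted p = 0.0782). Leaving out SMARCB1 dBRD9-A replicate 1 brought it past the threshold, at -0.22 (edgeR adjusted p = 0.0262). BRD8 was also the only one of the 9 whose pairwise log2 differences in one state all lay beyond those in the other, beside 9.47% of all genes. With spike-in scaling all 9 interactions were negative and called, beside 71.1% of all genes called lower and a shift of all genes of -0.49.

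**Figure D2:**
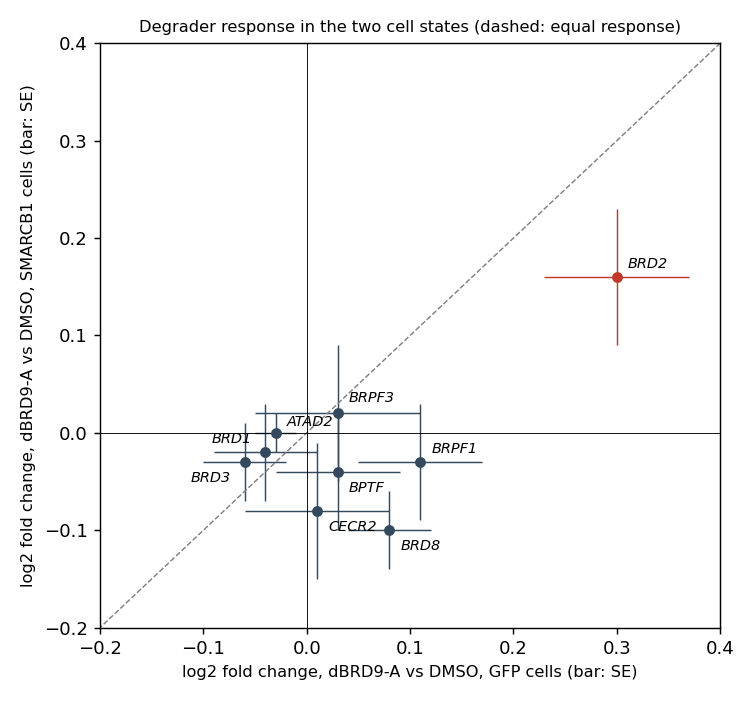
Log2 fold change with dBRD9-A in GFP cells (horizontal axis) against that in SMARCB1 cells (vertical axis) for the 9 genes, with bars for the SE, a dashed line of equal response, and red for the gene called in GFP cells. BRD2 lies at 0.30 and 0.16, BRD8 at 0.08 and -0.10, and the other 7 lie within 0.11 of 0 on both axes.

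Restoring SMARCB1 in DMSO went with a called change in 6 of the 9 genes, 5 higher and 1 lower, beside 65.0% of all genes called (33.5% higher and 31.6% lower). CECR2 rose most, then BRPF3, BRD8 and ATAD2, with a smaller rise of BRD1, and BRD3 fell. BRD2, BRPF1 and BPTF were not called. The share of genes whose groups did not overlap, 6 of 9, stands beside 68.7% of all genes, and both shares of the 9 are near those of all genes. This comparison uses the same DMSO libraries as the degrader comparisons, so the values are given side by side and not related to each other.

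Of the BET genes, BRD3 was lower and BRD2 was not called. BRD3 had 33.8, 31.3 and 33.4 CPM in GFP DMSO and 28.5, 29.1 and 29.4 CPM in SMARCB1 DMSO, with every SMARCB1 library below every GFP library. The mean went from 32.84 ± 1.39 to 29.02 ± 0.488 CPM (SD, n = 3). The fall was -0.18 on the log2 scale (SE 0.04, edgeR adjusted p = 0.000558). With spike-in scaling the BRD3 value was -0.01 (edgeR adjusted p = 0.933), which is -0.17 relative to the shift of all genes. BRD3OS, which overlaps BRD3 on the opposite strand and has a similar level, had a log2 fold change of -0.04 (edgeR adjusted p = 0.394). BRD2 had a log2 fold change of -0.03, with a 95% interval of -0.18 to 0.12.

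Of the acetyltransferase scaffolds, BRPF3 rose clearly beyond the spread of its replicates. It had 10.2, 11.4 and 10.2 CPM in GFP DMSO and 13.2, 15.7 and 13.8 CPM in SMARCB1 DMSO. No libraries overlapped, and the rise was 1.35-fold (log2 fold change 0.43, SE 0.07, edgeR adjusted p = 4.79e-05). BRD1, a scaffold of the acetyltransferase KAT7, had 37.8, 37.7 and 37.3 CPM in GFP DMSO and 40.7, 40.8 and 40.5 CPM in SMARCB1 DMSO. Its groups were tight and did not overlap, yet the 1.08-fold rise was near the threshold (log2 fold change 0.11, SE 0.05, edgeR adjusted p = 0.0394). The BRD1 call was lost when any 1 of the 6 DMSO libraries was left out, with edgeR adjusted p between 0.0687 and 0.102. BRPF1, whose groups overlapped, had a log2 fold change of -0.02 with a 95% interval of -0.15 to 0.10.

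BRD8, the TIP60 subunit, had 45.2, 43.1 and 43.0 CPM in GFP DMSO and 54.4, 54.7 and 55.6 CPM in SMARCB1 DMSO. The groups were far apart compared with their spread, and the rise was 1.25-fold (log2 fold change 0.33, SE 0.04, edgeR adjusted p = 1.08e-06). KIF20A, a mitotic kinesin gene that overlaps BRD8 on the opposite strand, had higher levels than BRD8, 165 CPM in GFP DMSO and 177 in SMARCB1 DMSO (log2 fold change 0.10, edgeR adjusted p = 0.00285). The library kit marks strand, but the strand setting of the counting is not given in the sources used here, so how reads of such pairs were divided was not tested.

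The remodelling subunits CECR2 and BPTF gave different values. CECR2 had 11.04, 10.93 and 9.853 CPM in GFP DMSO and 18.3, 19.0 and 19.7 CPM in SMARCB1 DMSO. Every SMARCB1 library was well above every GFP library, and the 1.80-fold rise was the largest of the 9 (log2 fold change 0.85, SE 0.07, 95% interval 0.70 to 0.99, edgeR adjusted p = 5.43e-09). BPTF had 49.08, 48.97 and 45.76 CPM in GFP DMSO and 41.5, 46.0 and 52.0 CPM in SMARCB1 DMSO. The SMARCB1 libraries of BPTF were spread on both sides of the GFP ones, and its log2 fold change was -0.04 (95% interval -0.16 to 0.09). Without SMARCB1 DMSO replicate 3, the highest, BPTF was at -0.13 (edgeR adjusted p = 0.0385).

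ATAD2, an ATPase linked to chromatin in dividing cells, had 303, 298 and 293 CPM in GFP DMSO and 363, 376 and 370 CPM in SMARCB1 DMSO. The rise was 1.24-fold with no overlap (log2 fold change 0.31, SE 0.02, edgeR adjusted p = 3.57e-09). Its 95% interval, 0.26 to 0.36, was narrow beside those of the lower-count genes.

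**Figure D3:**
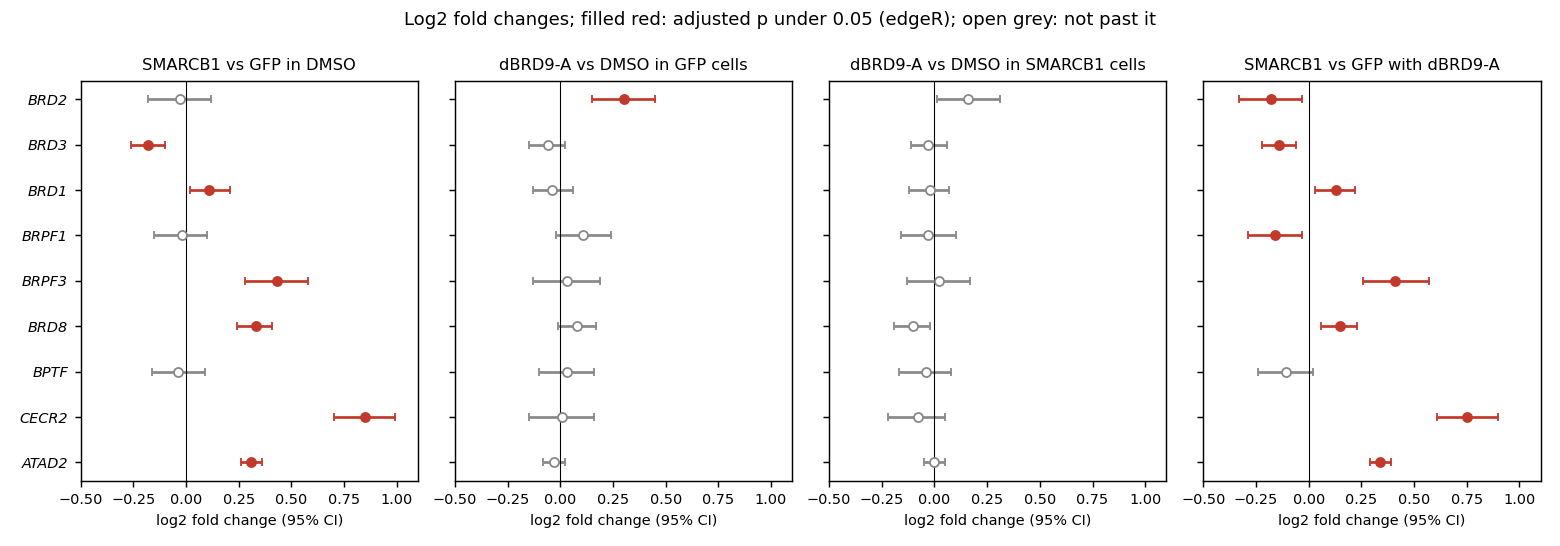
Log2 fold changes (horizontal axes) of the 9 genes with 95% intervals, 1 panel per comparison, with filled red points for an edgeR adjusted p under 0.05 and open grey points otherwise. In SMARCB1 against GFP cells CECR2 stands highest at 0.85, and with dBRD9-A in GFP cells BRD2 at 0.30 is the only filled point.

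With dBRD9-A present, 8 of the 9 genes were called between SMARCB1 and GFP cells, 5 higher and 3 lower, beside 63.3% of all genes (33.0% higher and 30.4% lower). The groups did not overlap for 7 of the 9, beside 66.2% of all genes. CECR2 (log2 fold change 0.75, edgeR adjusted p = 4.61e-08), BRPF3 (0.41, 9.57e-05), ATAD2 (0.34, 1.23e-09), BRD8 (0.15, 0.00454) and BRD1 (0.13, 0.0262) were higher. BRD3 (-0.14, 0.00513), BRPF1 (-0.16, 0.0332) and BRD2 (-0.18, 0.0391) were lower, and BPTF was at -0.11 (0.121). CECR2 had 9.56, 11.3 and 11.2 CPM in GFP dBRD9-A and 19.1, 18.0 and 16.7 CPM in SMARCB1 dBRD9-A, again without overlap. The 5 higher genes are those that were called higher in DMSO. At an edgeR adjusted p under 0.01, CECR2, BRPF3, ATAD2, BRD8 and BRD3 were called, 5 of the 9, beside 53.6% of all genes.

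Of these 8 calls, those of BRD1, BRD2 and BRPF1 were lost when some single libraries were left out. BRD2 overlapped between the groups and was not called by DESeq2 (adjusted p = 0.0766) or in a fit of these groups alone (edgeR adjusted p = 0.0578). Its edgeR call was also lost without GFP dBRD9-A replicate 1 (adjusted p = 0.303), SMARCB1 dBRD9-A replicate 1 (0.076) or replicate 3 (0.2). BRD1 also overlapped and lost its edgeR call without GFP dBRD9-A replicate 1 (adjusted p = 0.0781) or 2 (0.0786) and without SMARCB1 dBRD9-A replicate 2 (0.214). BRPF1 lost it without GFP dBRD9-A replicate 1 (0.0862) or 3 (0.086) and without SMARCB1 dBRD9-A replicate 1 (0.0778) or 3 (0.0846). With spike-in scaling BRD1 and BRD8 turned lower and were called, at -0.21 and -0.18, and the calls of BRPF3 (0.09, edgeR adjusted p = 0.405) and ATAD2 (0.01, 0.859) were lost. Under that scaling only CECR2 of the 9 was called higher, at 0.43, beside 13.5% of all genes, and 6 of the 9 were called lower, beside 57.4% of all genes.

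For each gene called in at least 1 comparison, the genes with the nearest pattern were sought by the root mean square difference of mean-centred log2 CPM over the 12 libraries. ATAD2 had the closest neighbours, DNAJC9 (0.0213) and PCMT1 (0.0227), against its own SD of 0.164 on that scale. BRPF3 was nearest to PPP2CB (0.0333) and CLSPN (0.0476), and CECR2 to ACSL1 (0.0619) and HJURP (0.0647). BRD8 was nearest to HOXA9 (0.0409) and ABL1 (0.0416), and BRD3 to MRPL15 and NPM1 (both 0.0256). BRD1 was nearest to EPHB4 (0.0272) and INF2 (0.03), and BRPF1 to RUSC1 (0.0428) and RBM25 (0.0465). BRD2 had the most distant neighbours, LRP10 (0.0741) and ANAPC11 (0.0783).

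Genes of complexes linked to the 9 were read from lists, by their counts and medians. In DMSO, SMARCB1 against GFP, 9 genes of the KAT6 and KAT7 acetyltransferase complexes gave 3 higher and 1 lower (median log2 fold change 0.03). Not all of these 9 are BRPF partners. The 16 TIP60 subunits gave 8 higher and 4 lower (0.12). The 7 NURF and CERF partners gave 3 higher and 2 lower (-0.06), beside a median of 0 and 65.0% called over all genes. Among the KAT6 and KAT7 complex genes, JADE1 (0.19) and the enzyme KAT6A (0.19) rose and the reader ING5 fell (-0.19). In TIP60, EPC2 rose (0.53) and the ATPase RUVBL1 fell (-0.31). LUZP1, a CERF component, rose (0.83) and the histone chaperone RBBP4 fell (-0.42), so partners of CECR2 and BPTF did not move one way. All of these passed the edgeR threshold, the weakest being KAT6A (adjusted p = 0.00123).

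Among 10 genes of P-TEFb, the kinase that BET proteins are linked to, and related elongation factors, 3 were higher and 2 lower with SMARCB1 in DMSO (median 0.03). The elongation factors ELL2 (1.95, edgeR adjusted p = 3.89e-13) and AFF1 (1.41, 2.73e-12) rose, and the cyclin CCNT1 fell (-0.27, 5.54e-07). Of 18 DNA replication genes, listed because ATAD2 is a gene of dividing cells, 9 were higher, 3 lower and 6 not called (median 0.08). By adjusted p MCM6 (0.30), GINS3 (0.31) and CDC45 (0.25) came first. The 3 lower genes were MCM7 (-0.14), PCNA (-0.08) and FEN1 (-0.07). The part of changes in replication genes in the ATAD2 value was not tested. Of 28 other bromodomain genes 25 were tested, and 15 were higher and 6 lower (median 0.14). By adjusted p SP110 (4.80, edgeR adjusted p = 6.83e-14) and the ISWI partner BAZ1A (0.67, 1.81e-10) came first. SP110, SP140 and SP140L, which are among the 15, passed the count filter only through the SMARCB1 libraries. For these genes a higher level with SMARCB1 was a condition of being tested, so their calls are not independent support. The 3 line markers were all called, VIM higher (0.81) and KRT18 (-0.58) and KRT8 (-0.28) lower. All counts in this paragraph stand beside 65.0% of all genes called (33.5% higher and 31.6% lower).

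With the degrader in GFP cells, 5 of 25 other bromodomain genes, 2 of 9 KAT6 and KAT7 complex genes and 1 of 7 NURF and CERF partners were called. So were 2 of 10 elongation genes and 1 of 18 replication genes, beside 15.9% of all genes. No TIP60 subunit of 16 was called by edgeR or DESeq2, with 3 at an unadjusted p under 0.05, beside 4398 of all 15750 genes. The acetyltransferase KAT2A (0.22), BAZ1A (0.20), ING5 (0.16) and the ISWI ATPase SMARCA1 (0.18) were higher and kept the call without any 1 library. ZMYND8, a chromatin reader, was lower (-0.35, edgeR adjusted p = 1.03e-05), and was at 0.01 with spike-in scaling. KAT7 (-0.10), CCNT1 (-0.10) and RRM2 (-0.11) were lower with TMM and higher with spike-in scaling, at 0.26, 0.26 and 0.25, and CDK9 (0.14) was higher with both. These last 4 calls were near the threshold. KAT7 was not called by DESeq2 (adjusted p = 0.0709) or without GFP dBRD9-A replicate 1 or 2 or any 1 of the GFP DMSO libraries (edgeR adjusted p 0.0535 to 0.13). CCNT1 lost its edgeR call without the same 5 libraries (adjusted p 0.0502 to 0.126). RRM2 lost it without GFP DMSO replicate 1 or 3 or GFP dBRD9-A replicate 1 or 3 (0.0592 to 0.0988), and CDK9 without GFP DMSO replicate 2 or 3 or GFP dBRD9-A replicate 1 (0.0509 to 0.0831).

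In SMARCB1 cells the calls in these 6 lists were ZMYND8 (-0.18, edgeR adjusted p = 0.0309) and GINS3 (-0.15, 0.0459), both lower, beside 1.93% of all genes. ZMYND8 lost its edgeR call without SMARCB1 DMSO replicate 2 or 3 or SMARCB1 dBRD9-A replicate 1 or 3 (adjusted p 0.0756 to 0.175). GINS3 was called in 2 of the 12 fits with 1 library omitted, those without GFP DMSO replicate 3 or SMARCB1 dBRD9-A replicate 2, and its edgeR adjusted p reached 0.219 without SMARCB1 DMSO replicate 2.

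**Figure D4:**
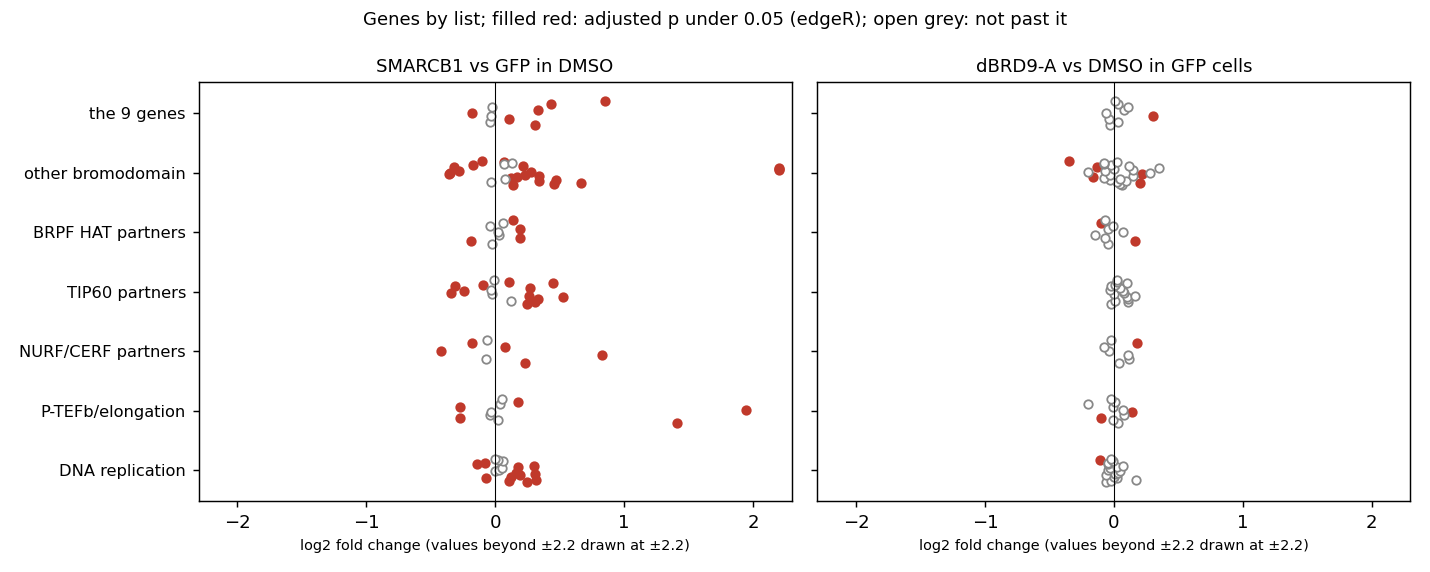
Log2 fold changes (horizontal axes) of single genes, 1 row per gene list, for SMARCB1 against GFP in DMSO and for dBRD9-A against DMSO in GFP cells, with filled red points for an edgeR adjusted p under 0.05 and values beyond the axis drawn at its edge. With SMARCB1 each list holds red points on both sides of 0, and with the degrader BRD2 is the red point among the 9 genes. The row of BRPF HAT partners holds the KAT6 and KAT7 complex genes, not all of which are BRPF partners.

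With dBRD9-A present, SMARCB1 against GFP cells gave 12 higher and 6 lower of 25 other bromodomain genes (median 0.11). SP110, SP140 and SP140L were among the 25 only through their levels in the SMARCB1 libraries. The comparison also gave the following counts. It gave 4 higher and 2 lower of 9 KAT6 and KAT7 complex genes (-0.04). It gave 8 higher and 3 lower of 16 TIP60 subunits (0.08), 3 and 3 of 7 NURF and CERF partners (0.01), 3 and 4 of 10 elongation genes (-0.02) and 10 and 2 of 18 replication genes (0.10). These counts stand beside 63.3% called over all genes. For the interaction, the single call in the 6 lists was CDK9, the kinase of P-TEFb, beside 3.80% of all genes called.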

How the data were processed

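Poly(A) RNA of G401 cells (12 libraries, 4 groups of 3) was extracted with an RNeasy Plus kit and prepared with a TruSeq Stranded mRNA kit, per the labels' protocols. The 3 tables the authors deposited hold expected counts per gene. STAR, RSEM 1.3.1, DESeq2 and the builds GRCh37 and hg19 are named per the submitters' processing notes. The annotation and the strand setting are not given in the sources used here. Libraries present in several tables had the same values in each and were used once.

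Expected counts were rounded to whole numbers. Symbols were matched by unversioned identifier for 51996 of 57820 rows, and exon lengths and neighbouring genes came from GENCODE 29 (52338 matched), which may differ from the authors' annotation. Counts of 40 ERCC spike-ins, 0.9634% to 1.302% of each library, entered neither library sizes nor tests. Gene counts per library were 34.97 to 58.54 megacounts. A count of 3, used as the floor, came to 0.0513 to 0.0858 CPM, which covers counting error only, since reads are not independent molecules.

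Tests used R 4.3.3 and edgeR 4.0.16 (filterByExpr, minimum count 10, 15750 genes, TMM factors 0.9765 to 1.016). The quasi-likelihood model had 1 coefficient per group over all 12 libraries, and p-values were adjusted over all genes by Benjamini-Hochberg, with calls under 0.05. SEs came from the F statistic. Adjusted p-values are from edgeR unless another tool is named. The procedure was tested on simulated data, with changes larger than those of the bromodomain genes with the degrader. That test does not cover changes as small as theirs. Groups were taken not to overlap when every library of one lay above every library of the other.

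Alternatives were DESeq2 1.42.0, other scalings (spike-ins among them), other filters, each compared pair of groups alone, a replicate block, a stricter threshold and leaving out each library. Named genes were the 9, up to 3 called genes with the smallest adjusted p per list and comparison, and the 2 nearest patterns per called gene, with a pseudocount of 0.5 on the log2 CPM scale. KIF20A, HLA-DMA, BRD3OS, MCM7, PCNA, FEN1, SP140L and SP100 were named outside that rule. The 9 genes and the lists were chosen with earlier results of these data known. Promoter windows came from RefSeq (GRCh38.p14), and 7 of the 9 genes had one.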

Additional observations from a re-analysis of the deposited data

Results flagged for a closer look

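CDK9, the kinase of P-TEFb, was picked out because its response to dBRD9-A differed between the cell states by a direct test. It had 33.5, 32.5 and 32.0 CPM in GFP DMSO and 36.6, 35.6 and 35.5 CPM in GFP dBRD9-A. In SMARCB1 cells it had 30.7, 33.0 and 32.4 CPM with DMSO and 30.9, 30.5 and 30.2 CPM with dBRD9-A. The treated libraries were all higher in GFP cells, while the groups overlapped in SMARCB1 cells. The interaction was -0.21 on the log2 scale (SE 0.05, edgeR adjusted p = 0.0389, DESeq2 adjusted p = 0.0502). It was called in 3 of 12 fits with 1 library omitted, namely SMARCB1 dBRD9-A replicate 2, GFP DMSO replicate 1 or SMARCB1 DMSO replicate 1, with edgeR adjusted p from 0.0239 to 0.11 over the 12.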

How the results depend on the processing

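Of 846 recomputed values of single genes, 791 kept their side of the threshold, 28 lost the call, 19 gained one and 8 reversed. Reversed means a change of sign with a call before the change of processing, after it or both. The 791 include uncalled values that changed sign. BRD2 for SMARCB1 against GFP in DMSO, for example, was at -0.03 with TMM and at 0.14 with spike-in scaling. All 8 reversals came with spike-in scaling: BRD1 0.32, BRD3 0.30 and ATAD2 0.33 for dBRD9-A in GFP cells, BRD1 -0.21 and BRD8 -0.18 for SMARCB1 against GFP with dBRD9-A, and BRD1 -0.49, BRD3 -0.46 and ATAD2 -0.47 for the interaction. Spike-in scaling called 9 genes for dBRD9-A in GFP cells (edgeR, all higher, beside 70.4% of all genes) and 9 for the interaction (all lower, beside 71.1%), and the cause was not tested. Without a filter on low counts 1 gene was called for dBRD9-A in SMARCB1 cells (2.27% of all genes). At an adjusted p under 0.01, a stricter limit by construction, 5 genes were called for SMARCB1 against GFP with dBRD9-A (53.6% of all genes). Leaving out 1 library at a time gave 5 to 6 called genes for SMARCB1 against GFP in DMSO, 0 to 1 for dBRD9-A in GFP cells, 5 to 9 for SMARCB1 against GFP with dBRD9-A and 0 to 1 for the interaction. Same-numbered libraries of different groups did not deviate together (correlations -0.0891 to 0.0573 over 18 pairs, and 1 of 12 libraries closest to its own number), so the numbers were not taken as pairs. With a replicate block the called genes numbered 6 for SMARCB1 against GFP in DMSO, 1 for dBRD9-A in GFP cells and 0 in SMARCB1 cells, 8 for SMARCB1 against GFP with dBRD9-A and 0 for the interaction, and the block changed no call among the 9 genes. With 3 libraries a group, changes within the printed intervals were not resolved.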

Other observations

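Among the other bromodomain genes, the 4 adjacent coding genes SP110, SP140, SP140L and SP100 on chromosome 2, which encode relatives of the nuclear body protein SP100, were all higher in count with SMARCB1. They were looked at together after their values were seen. SP110 went from 0.183 ± 0.0399 CPM in GFP DMSO to 5.24 ± 0.432 CPM in SMARCB1 DMSO (SD, n = 3). The log2 fold change was 4.80 (SE 0.17, edgeR adjusted p = 6.83e-14). SP110, SP140 and SP140L passed the count filter only through the SMARCB1 libraries. A higher level with SMARCB1 was thus a condition of their being tested, and no support is drawn from that p-value. SP140 had 0 counts in the GFP DMSO libraries and 46 to 87 with SMARCB1, which was at least 25.0-fold higher against a floor of 3 counts per library. With dBRD9-A it was at least 16.6-fold higher. SP140L had at most 1 count in GFP DMSO and 34 to 41 in SMARCB1 DMSO. SP100 had 1.17 to 3 counts in GFP DMSO and 8 to 12 in SMARCB1 DMSO, and was too low to be tested.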
